A study of Mus musculus with 37 samples.

Results

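The genes of cholesterol and fatty acid synthesis were followed in cultured mouse astrocytes. Membership was set by a list of 30 named genes, and each gene was read from the probe set with the highest mean over all arrays. A probe set that names 1 gene was found for 29 of the 30, out of 18194 genes with such a probe set in all; Acat2 was not analysed here. The 29 comprised 15 enzymes from acetyl-CoA units to cholesterol, 8 enzymes of fatty acid synthesis and desaturation, 5 regulators and the sterol carrier Stard4. All 29 passed the filter on dim probe sets, and 28 exceeded the background level on all 37 arrays; Fdps did so on 36.

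Primary astrocytes from P0-P1 neonates were grown with serum. One strain was 129S4/SvJae (129) and the other C57BL/6J (B6), and the sexes were kept apart. They were nucleofected with pcDNA3.1-hygro carrying CDCA7L or with the empty pcDNA3.1-hygro vector, so the controls also went through transfection and carry the plasmid backbone. Among 129 females 4 arrays carried Cdca7l and 4 the vector, and among 129 males 5 and 5. Among B6 females the numbers were 4 and 5, and among B6 males 5 and 5. Array labels name a clone with a number in parentheses, and 15 of 22 clone labels appear with both plasmids; whether a label stands for 1 animal, litter or culture is not given in the labels, so p-values measure the spread between these arrays.

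Values are GCRMA expression levels on the log2 scale, where a difference of 1 is a doubling; levels are compared within a gene, never between genes. The background level was 3.189, the median of the whole table. The upper quartile of an array lay at 8.36 on 129 female vector 1(3) and between 9.03 and 9.51 on the other 36. On the array labelled B6 female vector 5.1(1), Xist was as low as in males, at 2.40 against 10.71 to 12.20 on 16 other arrays of females. The Y-linked Eif2s3y reached 11.91 on it, within the 11.73 to 12.71 of males. Both arrays were kept. Of 10 astrocyte markers, Gfap, Slc1a3, Gja1 and Aqp4 exceeded background on 37 of 37 arrays. Another, S100b, was at background throughout the 129 female Cdca7l, 129 male Cdca7l and B6 female vector groups. Markers of other cells were also measured. Of 10 markers of the oligodendrocyte lineage 5 were tested and averaged 7.41 to 10.28 over the arrays, with Mag and Mobp at background on all of them. Of 8 neuronal markers 5 were tested and averaged 6.74 to 10.05, with Rbfox3 and Slc17a6 at background throughout. Of 8 fibroblast and meningeal markers 7 were tested and averaged 4.06 to 11.98, highest on 129 male vector 3(1). Of 12 microglial and macrophage markers 7 were tested and averaged 2.86 to 9.85, highest on 129 male vector 5(2), with Cx3cr1, Itgam and Trem2 at background throughout.

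Cells make cholesterol from acetyl-CoA through mevalonate, farnesyl diphosphate, squalene and lanosterol. When sterols in the endoplasmic reticulum are low, the escort protein Scap carries the membrane-bound transcription factors SREBP-1 and SREBP-2, the products of Srebf1 and Srebf2, to the Golgi, where they are cleaved and released to switch on genes of both pathways; Insig1 and Insig2 hold Scap back when sterols are plentiful. In the brain, which takes up little cholesterol from blood, astrocytes make much of the cholesterol and polyunsaturated fatty acids that they pass on to neurons.

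SREBP binds sterol response elements, and nearby CCAAT boxes bind the cofactor NF-Y. Promoter windows of 300 bases, from 250 before to 50 after each annotated start, were matched from RefSeq (GRCm38.p6) for 22 of the 29 genes, 30 windows in all, and searched on both strands for the sterol response element core TCACNCCAC. The core was found in 1 of the 22 genes, Hmgcs1, while 1.44% of 27025 genes hold it in a promoter window of this length. Matches of different motifs were counted separately whether or not they overlapped. A CCAAT box lay in a window of 18 of the 22 genes, and of 41.1% of all genes. The E-box CACGTG was found in 5 of the 22 genes and in 8.09% of all genes. The 250 bases before the start of Hmgcs1, the one member with the core, and of Srebf2, the SREBP gene whose level passed a test below, are shown with matches in capitals:
Hmgcs1, chr13:119690101-119690350, plus strand, GRCm38.p6: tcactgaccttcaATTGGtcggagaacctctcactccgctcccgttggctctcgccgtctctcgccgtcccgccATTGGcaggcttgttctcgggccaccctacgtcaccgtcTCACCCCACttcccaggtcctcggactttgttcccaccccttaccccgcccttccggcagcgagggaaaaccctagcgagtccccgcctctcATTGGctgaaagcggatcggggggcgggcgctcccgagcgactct
Srebf2, chr15:82147019-82147268, plus strand, GRCm38.p6: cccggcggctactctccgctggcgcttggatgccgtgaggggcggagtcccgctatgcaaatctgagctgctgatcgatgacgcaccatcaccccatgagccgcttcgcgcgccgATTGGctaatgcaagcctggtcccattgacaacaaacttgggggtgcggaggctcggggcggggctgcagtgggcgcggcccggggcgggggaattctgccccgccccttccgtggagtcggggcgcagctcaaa
In Hmgcs1 the core reads TCACCCCAC and begins 137 bases before the start, between inverted CCAAT boxes (ATTGG) that begin 176 and 45 bases before it; another lies at 237. In Srebf2 the capitals mark 1 inverted CCAAT box, 135 bases before the start. A match describes these letters and is no evidence of binding.

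The first comparison asked whether added Cdca7l, a nuclear protein that binds MYC, altered lipid synthesis genes. Cdca7l itself was higher with its plasmid by 24.5-fold on average (adjusted p = 1.25e-06), with no overlap between plasmids within any strain and sex. No member of the 29 passed. In the average over strains and sexes 0 of 29 members passed, where 0.00782% of all 25579 probe sets tested were called, and 2 members had an unadjusted p under 0.05. In 129 females, 129 males, B6 females and B6 males 0 of 29 passed, with 0% of all probe sets called in each, and 1 member, in B6 females, had an unadjusted p under 0.05.

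The 15 enzymes of the mevalonate and sterol steps lay slightly lower with Cdca7l in most cases, 12 of 15, with a median difference of -0.18 on the log2 scale against 0.02 over all probe sets. Lss, the cyclase that forms lanosterol, lay at -0.44 ± 0.21 (SE) and Sc5d, a late sterol desaturase, at -0.38 ± 0.18, with unadjusted p-values of 0.0463 and 0.045 and an adjusted p of 0.999 for both. The lower values of Lss in the Cdca7l groups overlapped the vector groups throughout: B6 males ranged from 8.48 to 9.93 with Cdca7l and from 8.50 to 10.65 with vector. Dhcr7, which catalyses the last step to cholesterol, lay at -0.43 ± 0.196 in B6 females (unadjusted p = 0.0346, adjusted p = 1) and at -0.18 ± 0.0964 on average. Of the 8 enzymes of fatty acid synthesis and desaturation 7 lay above zero, with a median of 0.07. Within each of these sets the members moved together over the arrays, with a median pairwise correlation of 0.52 and 0.46. Neither count is therefore one of independent genes, and no trend of a set was tested. The 5 regulators and Stard4 ranged from -0.06 to 0.30, the highest being Srebf1.

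The intervals show what size of change these arrays could have missed. For 16 of 29 members the 95% interval of the averaged difference lay within 0.5 of zero, and for 27 within 1. The narrowest was that of Acly, which makes cytosolic acetyl-CoA from citrate, at -0.13 to 0.09, and the widest that of Fdps, the farnesyl diphosphate synthase, at -0.95 to 1.03. Within a single strain and sex, between 12 and 14 members had intervals reaching past 1. Tests of whether the Cdca7l effect differed between sexes or between strains called 0 of 29 members, with 0% of all probe sets called in each; 0 members had an unadjusted p under 0.05 in either.

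**Figure D1:**
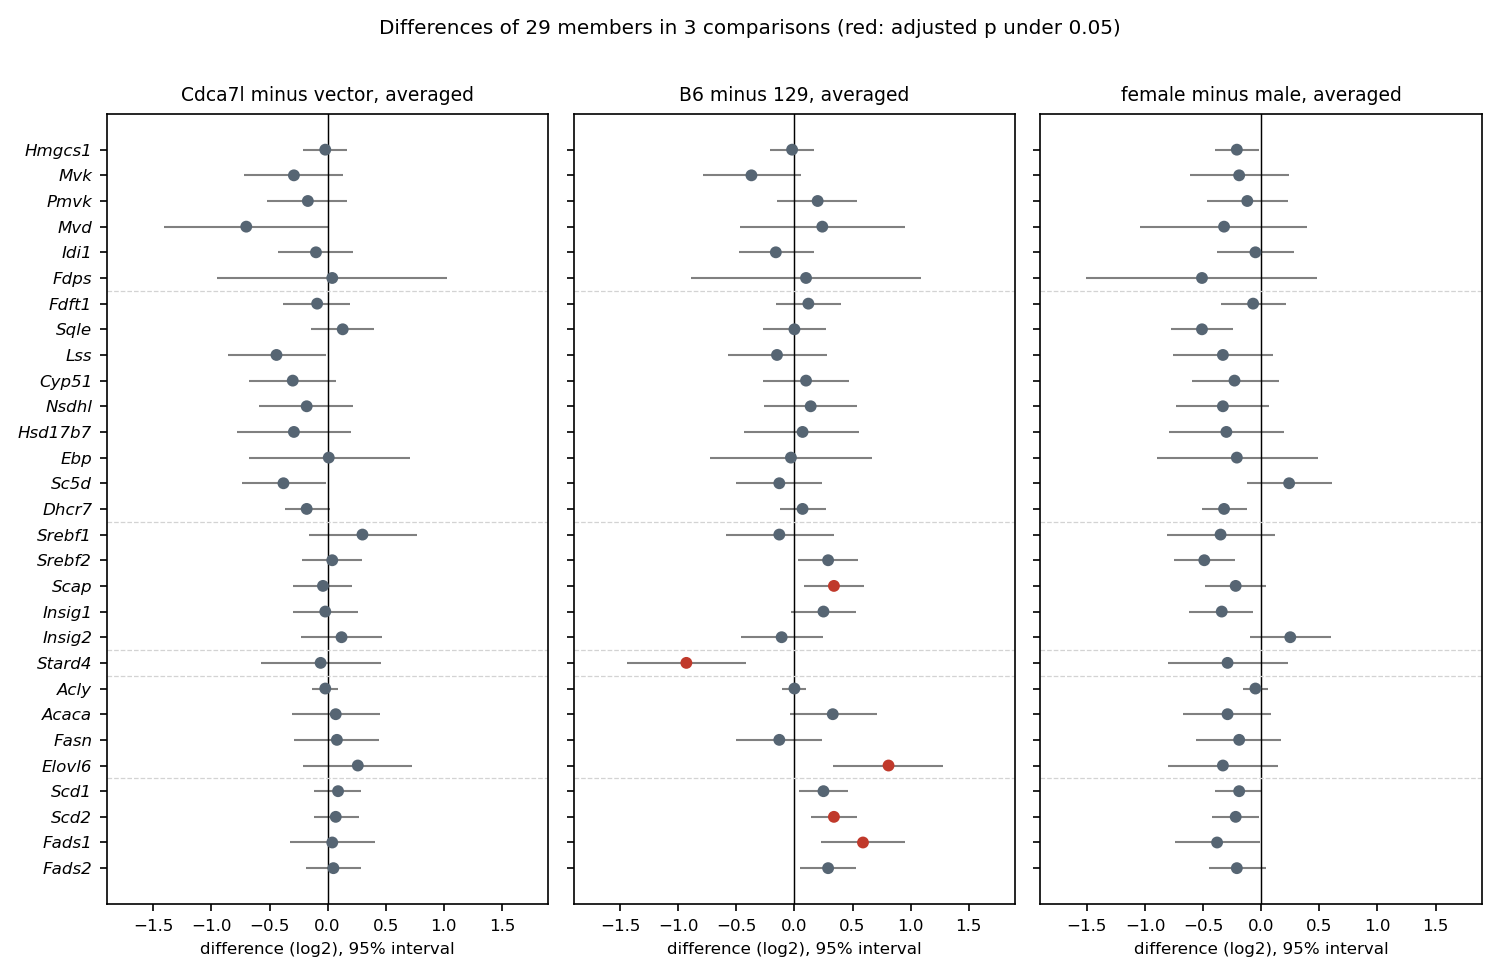
Difference of each of the 29 members in 3 comparisons, as points with 95% intervals on a log2 axis, for Cdca7l minus vector, B6 minus 129 and female minus male, each averaged over the other factors. Red marks an adjusted p under 0.05, which 0, 5 and 0 members reached, and dashed lines separate the roles from the mevalonate enzymes at the top to the desaturases at the bottom.

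B6 and 129 astrocytes differed in 3 enzymes of the fatty acid arm, in Scap and in Stard4. Averaged over sexes and plasmids, 5 of 29 members passed, which is 17.2% of them, against 25.2% of all probe sets, so the members were called no more often than probe sets in general. Higher in B6 were Elovl6, which elongates palmitate, by 0.81 ± 0.231 (SE, 1.75-fold, adjusted p = 0.0111), Fads1, a front-end desaturase of polyunsaturated fatty acids, by 0.59 ± 0.178 (1.51-fold, adjusted p = 0.0153), and Scd2, the stearoyl-CoA desaturase typical of brain, by 0.34 ± 0.0964 (1.27-fold, adjusted p = 0.0104). The escort protein gene Scap was also higher in B6, by 0.34 ± 0.126 (adjusted p = 0.0449). Stard4, which carries cholesterol between membranes, was lower in B6 by 1.9-fold (-0.93 ± 0.251, adjusted p = 0.00752). None of the 15 mevalonate and sterol enzymes passed in this comparison; their differences ran from -0.37 for Mvk, the mevalonate kinase, to 0.24 for Mvd, a decarboxylase further on. Probe sets of Hmgcs1, the synthase that feeds the mevalonate pathway, disagreed: the one used lay at -0.02, while 2 others were higher in B6, by 0.65 ± 0.208 (adjusted p = 0.0222) and 0.23 ± 0.0823 (adjusted p = 0.0407).

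Cell type markers also differed between the strains. Of 7 tested fibroblast and meningeal markers 5 were lower in B6 on average, with a median of -2.75; 6 were lower in males (median -3.88) and 1 in females (median -1.18). Of 5 tested ependymal markers 3 were higher in B6 on average (median 2.03), with 4 higher in females and 0 in males. Of 10 astrocyte markers 3 were higher in B6 (median 0.64), and of 13 mitotic genes 3 were lower (median -0.92). Of all probe sets 25.2% were called between strains on average, 17.6% in females and 10.5% in males. The astrocyte and mitotic counts lie near that averaged share, so they are no result about those lists. Of 5 tested neuronal markers 3 were higher and 1 lower in B6, and of 5 of the oligodendrocyte lineage 2 were higher. Of 7 tested microglial and macrophage markers 0 passed, with a median of -0.66. The part of these marker differences in the strain differences of the members was not tested.

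Stard4 fell into a high and a low range that followed strain for most arrays. In 129 it lay at 8.37 on female vector 1(3) and at 9.39 on female Cdca7l 2(3), and between 10.09 and 10.83 on the other 16 of 18 arrays. In B6 it lay between 8.12 and 9.73 on 14 of 19 arrays and between 10.19 and 10.73 on the other 5, so both strains reached the same top level. The B6 arrays in the upper range were female-labelled vector 5.1(1) and both plasmids of the male clones 2(2) and 5.6(1). The other 2 tested probe sets of Stard4 were also lower in B6, at -3.20 ± 0.489 (adjusted p = 1.48e-05) and -0.78 ± 0.246 (adjusted p = 0.0205). Without the 129 female vector 1(3) array and the array labelled B6 female vector 5.1(1), the difference was -1.15 ± 0.222 (adjusted p = 0.000417).

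Elovl6 ranged in B6 from 8.19 to 10.96 with a median of 9.99, and in 129 from 7.42 to 10.58 with a median of 9.16. The strains overlap over most of that range. Its second probe set, which lies near background with a mean of 3.40, was higher in B6 by 1.12 ± 0.226 (adjusted p = 0.000555). In males alone, where 0 of 29 members passed against 10.5% of all probe sets, Elovl6 lay at 0.84 ± 0.312 and Stard4 at -0.97 ± 0.34, close to their averaged differences, with adjusted p-values of 0.083 and 0.0629; 3 members had an unadjusted p under 0.05 there. Without the 129 female vector 1(3) array and the array labelled B6 female vector 5.1(1), Stard4 passed in males (-0.97 ± 0.29, adjusted p = 0.026).

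In females the called genes were desaturases. Fads2, the desaturase that opens the polyunsaturated pathway, was higher in B6 by 0.61 ± 0.173 (1.52-fold, adjusted p = 0.0162), Scd2 by 0.48 ± 0.142 (1.39-fold, adjusted p = 0.0204) and Fads1 by 0.80 ± 0.262 (1.74-fold, adjusted p = 0.0332). These were 3 of 29 members, or 10.3%, against 17.6% of all probe sets. Without the 129 female vector 1(3) array and the array labelled B6 female vector 5.1(1) all 3 passed, at 0.66 ± 0.174 for Fads2, 0.51 ± 0.15 for Scd2 and 0.85 ± 0.278 for Fads1 (adjusted p of 0.0112, 0.021 and 0.0354). The other probe sets of Scd2 (1.77 ± 0.42 and 1.32 ± 0.456) and Fads2 (2.08 ± 0.503 and 1.36 ± 0.356) passed in the same direction, whereas the second set of Fads1 did not pass (adjusted p = 0.999). Scd1, the other stearoyl-CoA desaturase measured, lay at 0.35 ± 0.15 (adjusted p = 0.102). Whether the strain difference itself differed between sexes was tested directly: 0 of 29 members passed, with 0% of all probe sets called, and 3 had an unadjusted p under 0.05, of which Fads2 lay at 0.62 ± 0.235 (adjusted p = 0.222).

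**Figure D2:**
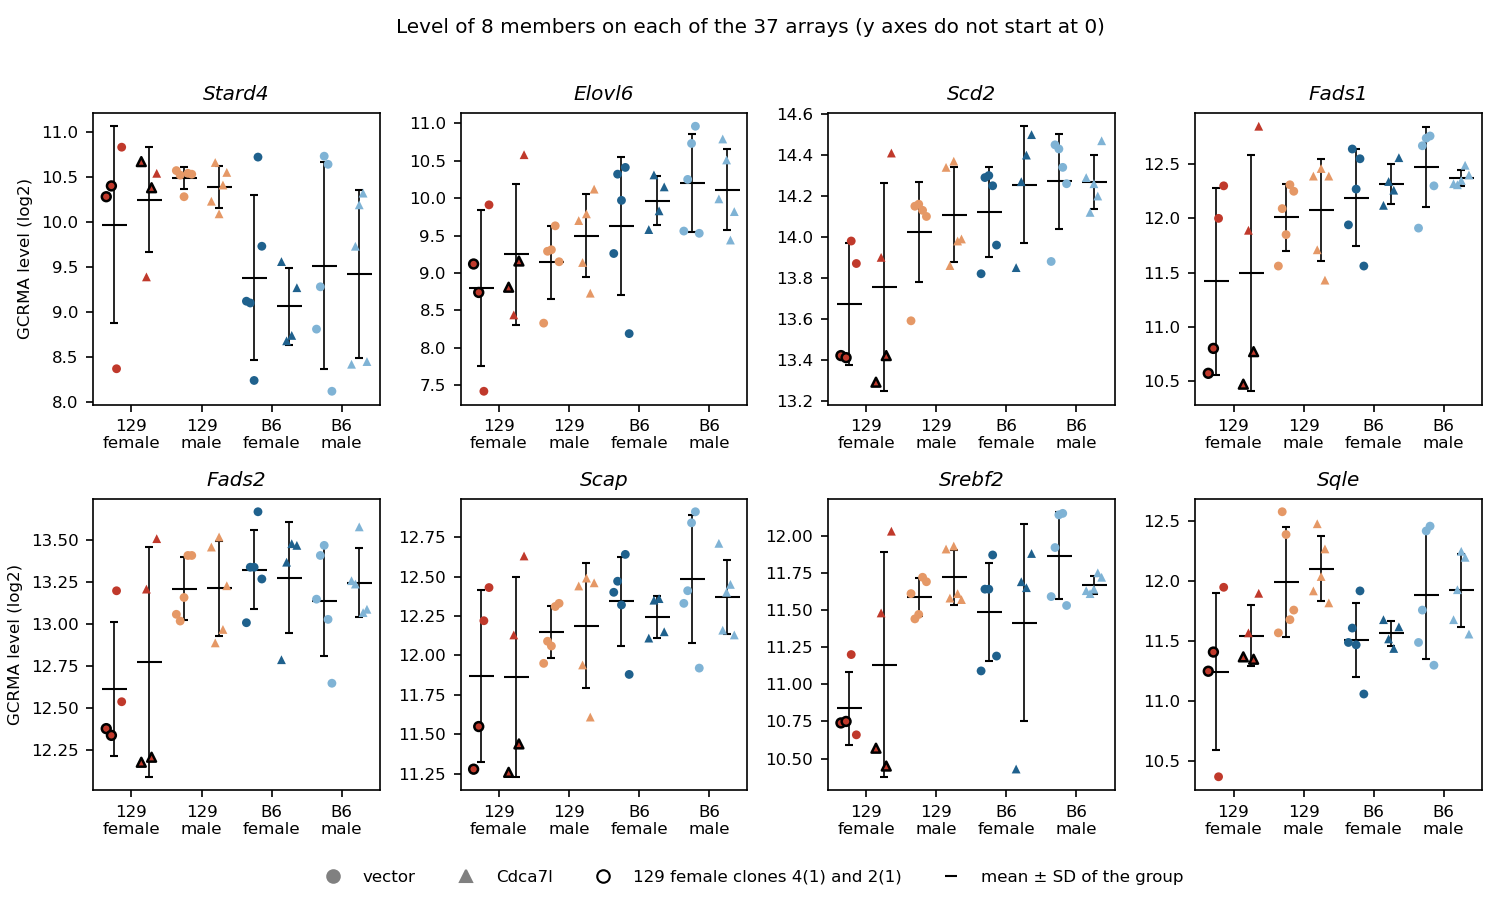
Level of 8 members on each of the 37 arrays on a log2 axis, by strain and sex, with circles for vector, triangles for Cdca7l, and a bar for the mean ± SD of each group. Points ringed in black are the 4 arrays of 129 female clones 4(1) and 2(1), which held the 4 lowest levels of Scd2, Fads1 and Scap.

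The desaturase differences between strains came with 4 arrays. In 129 females Fads1 lay at 10.57 and 10.80 on the vector arrays of clones 4(1) and 2(1), at 10.47 and 10.77 on their Cdca7l arrays, and between 11.89 and 12.85 on the other 4 arrays. The remaining 33 arrays of the study, both strains included, lay between 11.43 and 12.85, above all of the 4. Scd2 lay at 13.29 to 13.42 on these 4 and at 13.59 to 14.50 on the 33. Fads2 lay at 12.18 to 12.38 on the 4 and at 12.54 to 13.67 on the 33, and Scap at 11.26 to 11.55 against 11.61 to 12.91. Each clone gave the low level with both plasmids. What share of all tested genes separates these 4 arrays from the 33 was not counted, so the split is not shown to be particular to these members.

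The same 4 arrays were low in astrocyte markers and high in mitotic genes. The mean level of 10 astrocyte markers lay at 9.24 to 10.65 on them and at 11.21 to 12.89 on the others, and the mean of 13 mitotic genes at 9.78 to 10.87 against 4.44 to 8.31. Of the 10 astrocyte markers 9 exceeded background on at least 1 of the 4 arrays. In a bulk culture, fewer cells of a type and less RNA per cell cannot be told apart. On these arrays 7 ependymal markers averaged 2.58 to 3.27, against 4.38 to 8.36 on the others, while 12 microglial and macrophage markers averaged 3.66 to 4.44, inside the range of 2.58 to 7.46 of the others. The part of these marker shifts in the desaturase differences was not tested.

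Without these 4 arrays, a choice made after the values were seen, 0 of 29 members passed in the averaged strain comparison, where 13.3% of all probe sets were still called, and 0 of 29 in females, where 6.84% were. Fads1 then lay at 0.19 ± 0.137 on average and at -0.0028 ± 0.221 in females, Scd2 at 0.18 ± 0.0935 and 0.15 ± 0.15, Fads2 at 0.08 ± 0.108 and 0.19 ± 0.174, and Scap at 0.10 ± 0.115 and -0.06 ± 0.184. Stard4 and Elovl6 kept most of their size, at -0.77 ± 0.297 (adjusted p = 0.0853) and 0.77 ± 0.276 (adjusted p = 0.0614). Single arrays of this set also decided calls: without 129 female Cdca7l 4(1) or Cdca7l 2(1), the difference of Fads2 in females was 0.51 with adjusted p-values of 0.0547 and 0.0539, and 0 members passed. The call of Scd2 in females was lost without either of these, without 129 female vector 4(1) or without B6 female Cdca7l 1(4) (adjusted p of 0.0508 to 0.0657), and that of Fads1 without any of 9 arrays (adjusted p up to 0.105), namely those 4, 129 female vector 2(1), B6 female Cdca7l 3(3) and B6 female vector 4(5), 3(3) and 5.1(1). The averaged call of Scap was lost without any of 22 single arrays (adjusted p up to 0.0907). With the clone label as a random block, the averaged calls of Elovl6 (0.78 ± 0.31, adjusted p = 0.0817) and Scap (adjusted p = 0.092) and the calls of Scd2 and Fads1 in females (adjusted p of 0.0585 and 0.0746) were lost.

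Most members lay lower in female than in male astrocytes, but few differences passed. Averaged over strains, 27 of 29 members lay lower in females, with a median of -0.23 against -0.01 over all probe sets; 0 of 29 passed, where 0.321% of all probe sets did, and 7 had an unadjusted p under 0.05. Sqle, the squalene epoxidase and a control point of the sterol steps, lay at -0.51 ± 0.132 (adjusted p = 0.0806) and Srebf2 at -0.49 ± 0.128 (adjusted p = 0.0815). Sc5d and Insig2 were the members that lay higher in females, at 0.24 and 0.25. Many members move together over the arrays, so the count of lower members is not one of independent genes, and no trend was tested. Of 10 astrocyte markers 1 lay higher in females (median -0.49), and of 13 mitotic genes 12 did (median 0.84), with 0 of either list called. In 129 alone the medians of these lists were -0.89 and 0.57, with 1 astrocyte marker called lower, where 8.77% of all probe sets were called. The part of either in the sex differences was not tested. Without the 129 female vector 1(3) array and the array labelled B6 female vector 5.1(1), whose Xist and Eif2s3y were those of males, Srebf2 passed at -0.55 ± 0.131 (adjusted p = 0.042).

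In 129 astrocytes 2 members were lower in females, 6.90% of the 29 against 8.77% of all probe sets. Srebf2 was lower by 1.59-fold (-0.67 ± 0.184, adjusted p = 0.0258) and Sqle by 1.58-fold (-0.66 ± 0.19, adjusted p = 0.0315). Srebf2 ranged from 10.45 to 12.03 with a median of 10.74 in 8 female arrays and from 11.44 to 11.93 with a median of 11.61 in 10 male arrays. The female arrays at 11.48 and 12.03, Cdca7l 2(3) and Cdca7l 1(3), overlapped the males and the other 6 lay below every male array. Sqle ranged from 10.37 to 11.95 in females and from 11.57 to 12.58 in males, and 5 female arrays lay below all males, the lowest being vector 1(3). The second probe set of Srebf2 lay at -0.22 ± 0.182 (adjusted p = 0.46) and did not pass. Other probe sets were called where the one used was not: for Hmgcs1 1 set lay at -1.15 ± 0.299 (adjusted p = 0.0204), against -0.11 for the set used, for Scd2 1 set at -1.61 ± 0.409 (adjusted p = 0.0187) and for Stard4 1 set at -1.21 ± 0.353 (adjusted p = 0.0332).

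The sex difference in Srebf2 was smaller without the clones low in astrocyte markers, and that in Sqle changed less. Srebf2 also lay below every 129 male array on 129 female vector 2(3) and 1(3), at 10.66 and 11.20. Those arrays are of other clones, and their astrocyte markers averaged 12.26 and 12.35. Without the 4 arrays of clones 4(1) and 2(1), 0 of 29 members passed in 129, where 3.90% of all probe sets were called; Srebf2 then lay at -0.31 ± 0.197 (adjusted p = 0.361) and Sqle at -0.60 ± 0.248 (adjusted p = 0.142). Srebf2 lost its call without 129 female Cdca7l 4(1) (-0.57, adjusted p = 0.0827) or Cdca7l 2(1) (-0.55, adjusted p = 0.0867), and Sqle without any of 8 single arrays (adjusted p up to 0.082), namely 129 female vector 1(3) and 4(1), 129 female Cdca7l 4(1) and 2(1), and both plasmids of the 129 male clones 3(1) and 5(1). With the clone label as a random block neither passed, at adjusted p-values of 0.0939 and 0.126.

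In B6 astrocytes 0 of 29 members passed between the sexes, against 0.0352% of all probe sets, and 3 had an unadjusted p under 0.05. Dhcr7 came nearest, at -0.52 ± 0.134 with an unadjusted p of 0.000532 and an adjusted p of 0.75. Hmgcs1 lay at -0.31 ± 0.129 and Lss at -0.63 ± 0.292. Without the array labelled B6 female vector 5.1(1) and the 129 female vector 1(3) array, Dhcr7 passed at -0.61 ± 0.121 (adjusted p = 0.0407).

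Levels also varied between cultures of the same group. Within groups the median SD of a member was 0.542, against 0.643 over all tested probe sets and 0.547 over those with a mean above the lowest member mean. Deviations from the group means showed which members moved together over the 37 arrays. Among the 15 mevalonate and sterol enzymes the 105 pairwise correlations (Pearson's r) had a median of 0.52 and 100 were positive; among the 8 enzymes of fatty acid synthesis and desaturation the median of 28 pairs was 0.46; between these arms it was 0.16, and over all pairs of tested genes 0.04. The pairs with the highest r, at 0.89, were Ebp with Fdps, Fads1 with Scap, Fads1 with Scd1 and Fasn, the fatty acid synthase, with Acaca, which makes its substrate malonyl-CoA. The correlation of Ebp with Fdps includes 129 female vector 1(3), where Fdps lay at 2.84 and Ebp at 4.84; without it r was 0.72. Without this array and the array labelled B6 female vector 5.1(1) the medians of the mevalonate and sterol enzymes and of the fatty acid enzymes were 0.54 and 0.56.

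Regulators and Stard4 went with different sets of enzymes. Stard4 correlated with each of the 15 mevalonate and sterol enzymes, at 0.26 to 0.84, and so did Insig1, at 0.22 to 0.68. The 4 desaturases correlated among themselves at 0.74 to 0.89, with Srebf2 at 0.68 to 0.83 and with Scap at 0.68 to 0.89, and negatively with Sc5d (-0.76 to -0.58) and Insig2 (-0.57 to -0.54). With the 15 mevalonate and sterol enzymes the r of Srebf2 ran from -0.56 to 0.54, with a median of 0.09. Srebf1 went with Acaca, Fasn and Elovl6, at 0.67 to 0.75. On the 33 arrays without 129 female clones 4(1) and 2(1), the desaturases still correlated among themselves at 0.50 to 0.78 and with Srebf2 at 0.57 to 0.74, and Stard4 with the 15 enzymes at 0.47 to 0.86. All these values are descriptions over arrays that share clones, and carry no test.

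**Figure D3:**
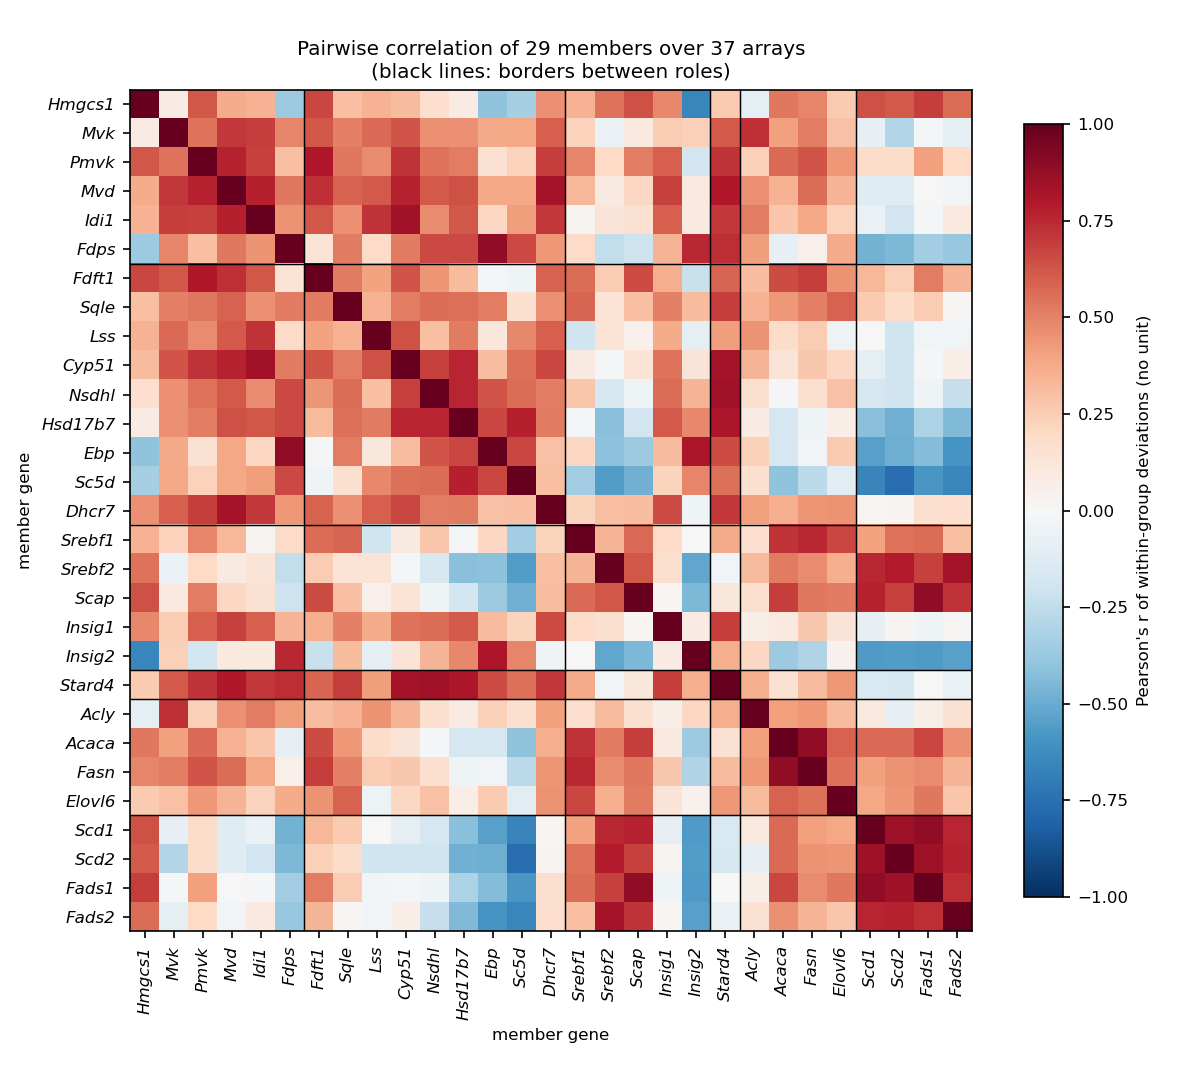
Pearson's r between the within-group deviations of each pair of the 29 members over 37 arrays, from -1 in blue to 1 in red, with black lines between roles. The 15 mevalonate and sterol enzymes form a mostly red block at the upper left and the 4 desaturases a red block at the lower right; Srebf2 and Scap are red, and Sc5d and Insig2 blue, against the desaturases.

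The marker lists were then set against each member, a comparison chosen after the values were seen. Over within-group deviations of 37 arrays, 13 of 29 members correlated with the mean of the 10 astrocyte markers at an adjusted p under 0.05 (permutation within groups, two-sided, adjusted over 58 relations), 10 positively and 3 negatively. Scd2 reached r = 0.91 and rho = 0.93, Fads1 0.90 and 0.88, and Scd1 0.89 and 0.86, each with a permutation p of 1e-05, the smallest that 100000 resamples can give, and an adjusted p of 0.000193. Scap (r = 0.78), Fads2 (0.71), Srebf2 (0.70), Hmgcs1 (0.67), Acaca (0.56), Srebf1 (0.51) and Fasn (0.42) followed. Sc5d went the other way, at r = -0.73 and rho = -0.76 (adjusted p = 0.00029), as did Insig2 (-0.63) and Hsd17b7 (-0.49), a reductase of sterol demethylation. The permutation did not keep arrays of 1 clone label together, though the estimated correlation within a label was 0.409, so these p-values may be too small. With means per clone label r was 0.94 for Scd2, 0.92 for Fads1, 0.92 for Scd1 and -0.79 for Sc5d. The median r over the 29 members was 0.02, against -0.09 over 12111 genes, of which 5% exceeded 0.74. Among the members Scd2, Fads1, Scd1 and Scap exceeded that level, and the others listed did not. What share of all genes passes the same permutation was not counted, so the 13 of 29 has no background share.

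Without the 4 arrays of 129 female clones 4(1) and 2(1), r was 0.93 for Scd2, 0.82 for Fads1, 0.79 for Scd1, 0.72 for Srebf2 and -0.65 for Sc5d. For Scap and Fads2 it was 0.57 and for Hmgcs1 0.46, weaker than on all 37 arrays. Srebf1 at 0.61 and Fasn at 0.58 were stronger. There 14 members passed, adjusted over the 29 astrocyte relations alone and not over 58. Scd2 correlated at 0.90, 0.91, 0.96 and 0.96 within 129 females, 129 males, B6 females and B6 males. Fads2 did so at 0.81, 0.83 and 0.83 in the first 3 of these and at 0.10 in B6 males. Scap and Hmgcs1 both lay at 0.31 in B6 males, and Scd1 at 0.63. Leaving out the 2 arrays farthest from the median in these markers, both of 129 female clone 4(1), gave 0.95 for Scd2 and 0.88 for Fads1. With the mitotic genes, 2 of 29 members correlated at an adjusted p under 0.05, Hmgcs1 at r = -0.71 (rho = -0.68, adjusted p = 0.00141) and Insig2 at 0.60 (rho = 0.53, adjusted p = 0.0151); without the 4 arrays these were -0.51 and 0.40. For Hmgcs1 the sign differed between groups, at -0.95, -0.85 and -0.77 in 129 females, B6 females and B6 males and at 0.57 in 129 males.

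**Figure D4:**
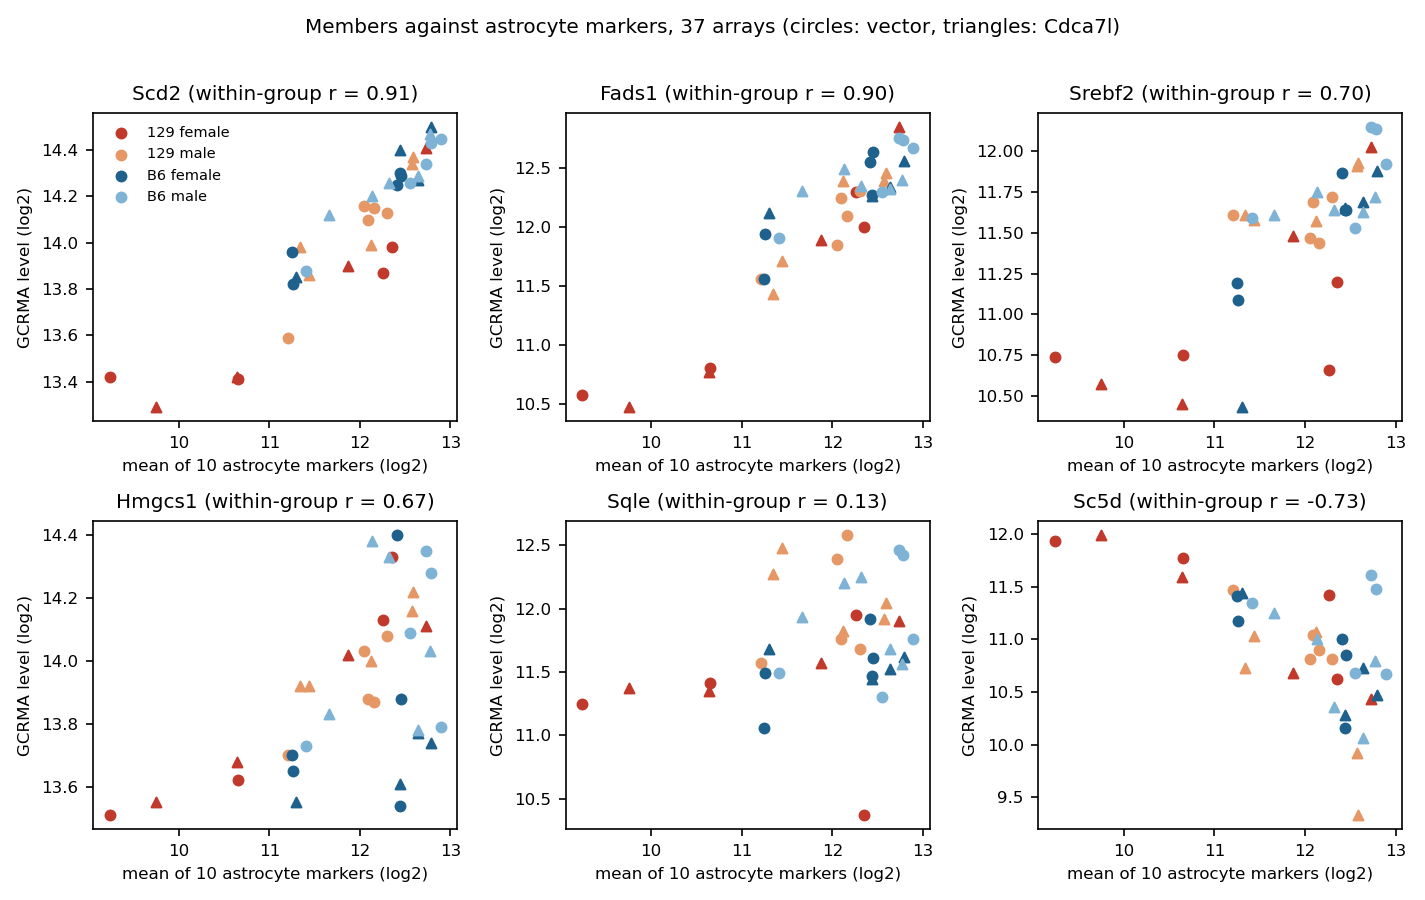
Level of 6 members against the mean of 10 astrocyte markers, both on log2 axes, for 37 arrays coloured by strain and sex, with circles for vector and triangles for Cdca7l. Scd2 and Fads1 rise with the markers (within-group r of 0.91 and 0.90), Sc5d falls (-0.73) and Sqle shows no slope (0.13).

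Hmgcs1, the member whose promoter window holds the sterol response element core, was taken as the reference for the other members. Its level ranged from 13.51 to 14.40 over 37 arrays. Of 28 other members, 12 correlated with it at an adjusted p under 0.05 by r (permutation within groups, two-sided, adjusted over 28) and 11 by both r and rho. What share of all genes passes the same test was not counted, so these counts have no background share. By rank of r, 7 members were in the top 5% of 12120 genes, where r exceeded 0.54, and 1 was in the top 1%. The closest were Fads1 at r = 0.69 and rho = 0.74 (adjusted p = 0.0014), Fdft1, the squalene synthase, at 0.67 and 0.62 (adjusted p = 0.00451), Scap at 0.64 and 0.66 and Scd1 at 0.64 and 0.64; Insig2 went against it at -0.65 and -0.67 (adjusted p = 0.0014). Among the mevalonate and sterol enzymes only Fdft1 and Pmvk passed on all 37 arrays. Ebp, Fdps and Sc5d lay at -0.40, -0.36 and -0.33 and were not called, so most sterol enzymes were not shown to follow Hmgcs1. Leaving out the 2 arrays farthest in Hmgcs1 gave 0.73 for Fads1, 0.55 for Fdft1 and -0.67 for Insig2. Means per clone label gave 0.71, 0.76 and -0.69 for these. Without the 129 female vector 1(3) array and the array labelled B6 female vector 5.1(1), r was 0.70 for Fads1, 0.57 for Fdft1 and -0.56 for Insig2. Without the 4 arrays of 129 female clones 4(1) and 2(1), 10 members passed, with Insig1 highest at 0.73 (adjusted p = 0.0105), then Pmvk, the phosphomevalonate kinase, at 0.67 (adjusted p = 0.0112). Fads1 lay at 0.51 (adjusted p = 0.0193), and Scap (0.43, adjusted p = 0.075) and Scd1 (0.46, adjusted p = 0.0585) lost their calls.

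Genes outside the members held the top of the ranking by r with Hmgcs1. Of 12120 genes the 10 with the highest r were Irf1 at 0.87, Dbi at 0.85, Nfkb2 at 0.84, Cst3 and Dnmt3a at 0.83, Tgfbrap1 at 0.82, Ckb and Crtc3 at 0.81, and Sbf2 and Gpd2 at 0.80, and the closest member, Fads1, ranked 93. Dbi encodes a binding protein of acyl-CoA, and Irf1 and Nfkb2 encode transcription factors of inflammatory signalling. The members had a median r of 0.35, against -0.16 over all ranked genes.

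For several sterol genes the relation to Hmgcs1 was positive in B6 and negative in 129. In B6 females and B6 males r was 0.98 and 0.69 for Dhcr7, 0.88 and 0.71 for Mvd, 0.83 and 0.52 for Idi1, the isopentenyl diphosphate isomerase, and 0.73 and 0.68 for Stard4. In 129 females and 129 males it was -0.25 and -0.49 for Dhcr7, -0.45 and -0.45 for Mvd, -0.62 and -0.45 for Idi1, and -0.53 and -0.71 for Stard4. Each value rests on 8 to 10 arrays, and the difference between strains was not tested. The B6 female values include the array labelled female vector 5.1(1), whose Xist and Eif2s3y were those of males. On it Hmgcs1 lay at 14.40 and Mvd at 9.43. The other B6 female arrays lay at 13.54 to 13.88 for Hmgcs1 and at 5.74 to 6.70 for Mvd. The r within B6 females without this array was not computed. For Fads1 all 4 values were positive, at 0.91, 0.71, 0.56 and 0.56 in 129 females, 129 males, B6 females and B6 males.

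In B6 the high values came on 5 arrays. The 5 highest of 19 B6 arrays in Hmgcs1 were those labelled female vector 5.1(1) at 14.40, male Cdca7l 2(2) at 14.38, male vector 2(2) at 14.35, male Cdca7l 5.6(1) at 14.33 and male vector 5.6(1) at 14.28; the other 14 lay between 13.54 and 14.09. The same 5 arrays were the 5 highest B6 arrays for 6 of the 28 other members, Pmvk, Mvd, Idi1, Fdft1, Insig1 and Stard4, and 4 of them were among the 5 highest for 8 more, including Sqle, Cyp51, the lanosterol demethylase, and Dhcr7. Mvd lay at 9.43, 9.77 and 9.96 on the vector arrays of these 3 clones, at 7.55 and 8.04 on their Cdca7l arrays and at 5.70 to 6.97 on the other 14. Insig1 lay between 14.01 and 14.37 on the 5 and between 12.91 and 13.77 on the 14. Of the desaturases, Fads2 had 3 of the 5 arrays among its 5 highest, Scd1 and Fads1 had 2 each, and Scd2 had 1. Fads1 lay between 12.35 and 12.76 on the 5 and between 11.56 and 12.67 on the 14, and Scd2 between 14.20 and 14.43 and between 13.82 and 14.50. Astrocyte markers averaged 12.13 to 12.78 on these 5 arrays and 11.25 to 12.89 on the 14, and mitotic genes 4.57 to 6.13 and 5.72 to 8.30. The 12 microglial and macrophage markers averaged 6.13 on female-labelled vector 5.1(1), 4.62 on male Cdca7l 2(2) and 3.13 to 3.94 on the other 3, against 2.62 to 4.98 on the 14. The 8 fibroblast and meningeal markers averaged 5.69 on female-labelled vector 5.1(1) and 3.86 to 5.03 on the 4 male arrays, against 5.16 to 5.78 on the 14. The part of these markers in the sterol gene levels was not tested. The 5 arrays were picked by their Hmgcs1 level, so these values are a description. For what share of all tested genes these arrays are also the 5 highest of B6 was not counted.

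**Figure D5:**
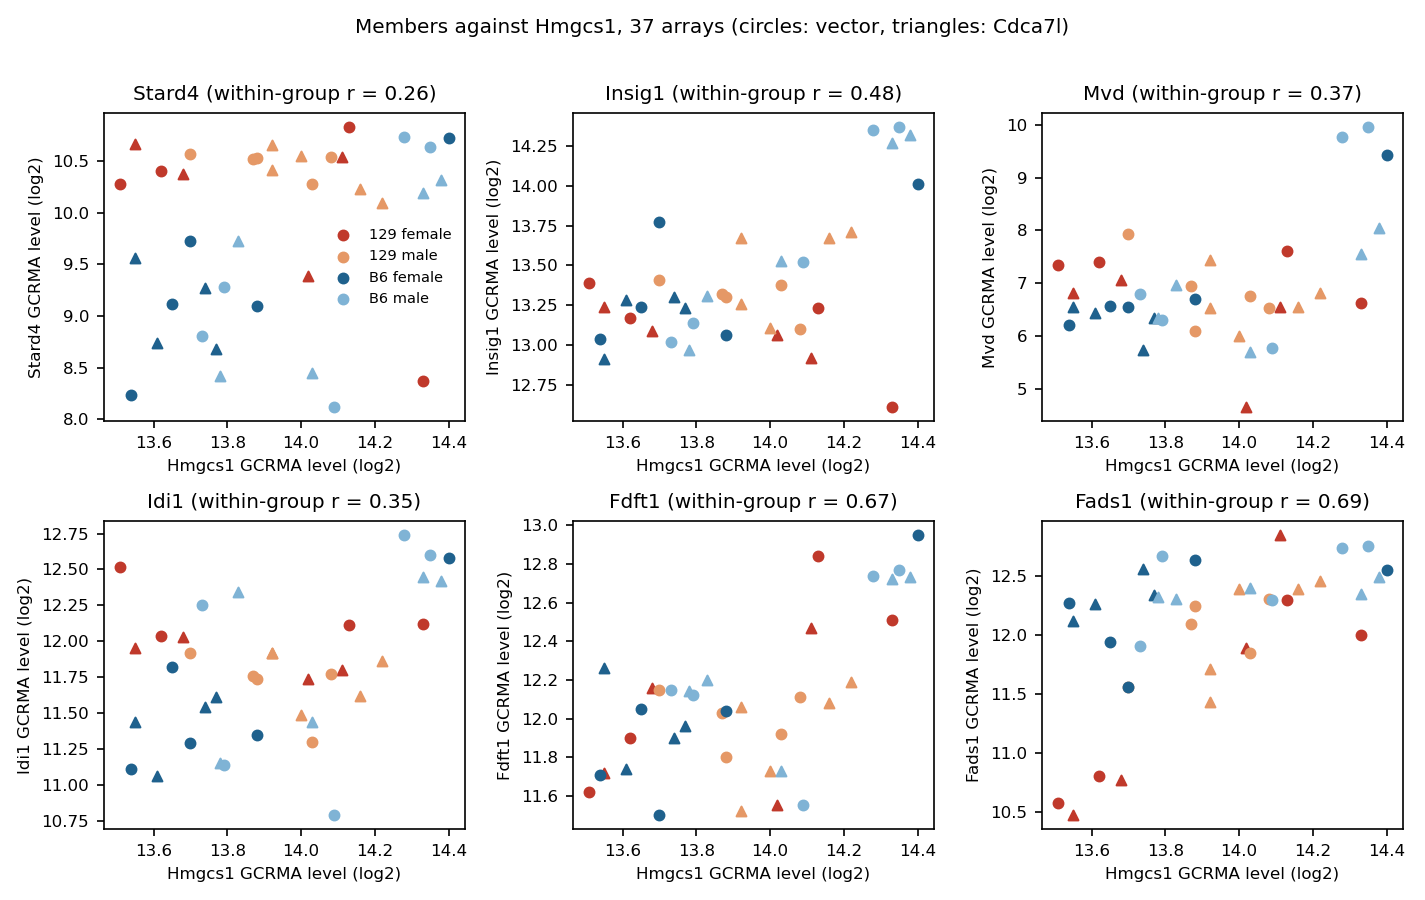
Level of 6 members against that of Hmgcs1, both on log2 axes, for 37 arrays coloured by strain and sex, with circles for vector and triangles for Cdca7l. The 5 B6 arrays with Hmgcs1 at 14.28 or more stand at the upper right for Stard4, Insig1, Mvd, Idi1 and Fdft1. On 16 of 18 129 arrays Stard4 lay at 10.09 to 10.83. The exceptions were 129 female vector 1(3), with Stard4 at 8.37 and Hmgcs1 at 14.33, and 129 female Cdca7l 2(3), at 9.39 and 14.02.

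Further genes of sterol and fatty acid handling, from 2 lists, were examined for the same comparisons. With Cdca7l 0 of 27 sterol genes and 0 of 31 fatty acid genes passed in the averaged comparison. Between strains 5 sterol genes were higher and 3 lower in B6, 29.6% of that list against 25.2% of all probe sets. Erlin2, an endoplasmic reticulum protein that takes part in the turnover of sterol-regulated proteins, was higher by 0.75 ± 0.118 (adjusted p = 2.38e-05), and Ggps1, which makes geranylgeranyl diphosphate from farnesyl diphosphate, by 0.66 ± 0.121 (adjusted p = 0.000177). Mylip, a ubiquitin ligase that lowers lipoprotein uptake, was lower (-2.09 ± 0.41, adjusted p = 0.000397), with 12 of 19 B6 arrays above background. Ch25h, which makes an oxysterol, was at or below background on all 19 B6 arrays and above it on 10 of 18 129 arrays, at least 2.49-fold lower in B6 (adjusted p = 0.00138). The 8 fibroblast and meningeal markers lay the same way, at 5.80 to 10.77 on arrays of 129 males and 3.86 to 5.64 on those of B6 males; their part in Ch25h was not tested. Among the fatty acid genes 5 were higher and 2 lower in B6, or 22.6%. Lpin1, a phosphatidate phosphatase, was higher by 1.29 ± 0.176 (adjusted p = 2.3e-06), ranging from 10.66 to 12.05 in B6 and from 9.20 to 11.42 in 129. Acsl6 and Acsl3, acyl-CoA synthetases, were higher by 1.45 ± 0.344 and 0.70 ± 0.203, and Acsl5, another, was lower at -0.32 ± 0.0919.

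Without the 4 arrays of 129 female clones 4(1) and 2(1), Erlin2, Ggps1, Mylip and Ch25h still passed between strains, and of the fatty acid genes Lpin1 did. In females, where 17.6% of all probe sets were called, 7 sterol genes were higher and 1 lower in B6 (29.6%), among them the efflux transporters Abcg1 at 2.42 ± 0.616 (adjusted p = 0.00775) and Abca1 at 0.87 ± 0.254 (adjusted p = 0.0183); of these 8, Erlin2 alone passed without the 4 arrays. Of the fatty acid genes 5 were higher and 2 lower in B6 females (22.6%), and 0 passed without the 4 arrays. In males, where 10.5% were called, 2 sterol genes were higher and 2 lower (14.8%), each also called in the average, and of the fatty acid genes Lpin1 was higher by 1.37 ± 0.239 (adjusted p = 0.000191).

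Between the sexes of 129, where 8.77% of all probe sets were called, 3 of 27 sterol genes (11.1%) and 3 of 31 fatty acid genes (9.68%) passed. Ch25h, Abcg1 and the lipoprotein receptor gene Lrp1 were lower in females, at -2.93 ± 0.771, -2.08 ± 0.6 and -0.73 ± 0.231. Of 7 tested fibroblast and meningeal markers 6 lay lower in 129 females, 1 of them called. Slc25a1, the carrier that exports citrate from mitochondria for fatty acid synthesis, was lower in females (-1.01 ± 0.195, adjusted p = 0.00356), and passed without the 4 arrays as well. Pparg, a nuclear receptor of fat cell differentiation, was at or below background on all 10 male arrays and above it on 5 of 8 female ones, at least 3.01-fold higher in females (adjusted p = 0.00943), and Fabp5, a fatty acid carrier, was higher in females by 0.41 ± 0.115. Of the genes named here, Ch25h and Slc25a1 passed without the 4 arrays. In B6, 0 genes of either list passed between the sexes.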

How the data were processed

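RNA was amplified before labelling, per the labels' protocols, and hybridised to 37 one-colour arrays. The authors deposited 1 table of log2 values for 45101 probe sets, made with GCRMA and Partek 6.5 per the submitters' processing notes, and it was used unchanged; the sources do not say if all arrays were normalized jointly. Symbols came from the platform annotation, updated by Entrez ID to GRCm38.p6; 34958 probe sets carried 1 symbol, 932 several and 9211 none, and genes were named from the first kind alone. A probe set was tested when above 3.189, the table's median, on at least 4 arrays: 25579 were, without 64 control probe sets.

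One model in limma 3.58.1 (R 4.3.3) gave each of the 8 groups a mean (29 residual degrees of freedom, empirical Bayes), with 14 comparisons and Benjamini-Hochberg adjustment over all probe sets tested; adjusted p-values below 0.05 are called, and those in the text are limma's unless a permutation is named. It was tested on simulated data. The members and lists were chosen with earlier results of these data known. The text describes the members, the 10 genes closest to Hmgcs1, and up to 4 called genes per related list and comparison. Where every array of the dimmer side was at or below the background level, the fold is a lower bound against that level. Correlations used deviations from group means, with permutation within groups. Arrays of the same clone label were not kept together in it, so the permutation p-values may be too small. Log2 values have no count depth; the number of arrays limits precision.

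Arrays of the 2 plasmids share clone labels. Deviations of same-labelled arrays correlated above 0.1 for every pair in B6 females (0.432 to 0.775) and B6 males (0.376 to 0.572), and for 3 of 4 pairs in 129 females (0.416 to 0.716, the other 0.061) and in 129 males (0.472 to 0.623, the other -0.0887), so the criterion of every pair above 0.1 was not met in 129; no fit in the main text used pairs unless it says so. Alternatives covered the variance prior, filter, normalization, array weights, blocks, probe set choice, groups in the fit and arrays left out.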

Additional observations from a re-analysis of the deposited data

Results flagged for a closer look

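Within groups of 4 or 5 arrays, 232 combinations of a member and a group were examined for a single array far from the others, and 17 (7.33%) had one, where chance gives about 5%. The 17 lay on 10 arrays. No explanation was tested.

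On 129 female vector 1(3), the array with the low upper quartile, Fdps lay at 2.84 (others of its group 9.34 to 10.40), Ebp at 4.84 (10.27 to 10.43), Insig2 at 8.86 (11.22 to 11.39) and Srebf2 at 11.20 (10.66 to 10.75). On B6 female Cdca7l 6(3), Srebf2 lay at 10.43 (11.65 to 11.88), Fads2 at 12.79 (13.37 to 13.48) and Hsd17b7 at 11.49 (10.14 to 10.24). On B6 female vector 2.1(1), Acaca lay at 8.43 (10.11 to 10.76) and Acly at 13.65 (13.91 to 13.98). On 129 male vector 3(3), Scd1 lay at 13.37 (13.82 to 13.93) and Scd2 at 13.59 (14.10 to 14.16).

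Single members stood apart on 6 further arrays. Mvd lay at 9.43 on the array labelled B6 female vector 5.1(1) (6.21 to 6.70), and Fdps at 7.24 on 129 female Cdca7l 2(3) (9.84 to 10.28). Idi1 lay at 12.52 on 129 female vector 4(1) (12.04 to 12.12) and Dhcr7 at 12.48 on B6 male Cdca7l 5.6(1) (12.12 to 12.21). Ebp lay at 8.67 on B6 female vector 3(3) (9.62 to 9.72) and Stard4 at 10.28 on 129 male vector 5(1) (10.52 to 10.57).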

How the results depend on the processing

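With Cdca7l, 0 members passed under every alternative run, leaving out each array and the fixed or random replicate block included, and the same held for both tests of its difference between sexes or strains. The count of members called between strains (5 on average) was 9 with array weights, 3 with the random replicate block, 0 without the 4 arrays of 129 female clones 4(1) and 2(1), and 4 to 8 when single arrays were left out. In females (3) it was 11, 1, 0 and 0 to 7 in that order, and 0 when the fit held only the groups compared. In males (0) it was 2 after quantile normalization, 4 with array weights, 1 with only the groups compared, 1 without both arrays that stand apart, and 0 to 1 without single arrays. Between sexes the averaged count (0) was 12 with array weights, 1 without both arrays that stand apart and 0 to 2 without single arrays. In 129 (2) it was 10 with array weights, 0 with the random replicate block, with only the groups compared and without the 4 arrays, and 0 to 5 without single arrays. In B6 (0) it was 5, 1 without both arrays that stand apart, and 0 to 1 without single arrays. The test of the strain difference between sexes (0) gave 9 with array weights, whose estimation stopped before convergence, with weights from 0.0357 to 10.1. Without both arrays that stand apart, 12.5% of all probe sets were called between strains in males. Between sexes 1.02% were called on average and 0.0626% in B6. The shares with array weights, quantile normalization, the random replicate block, only the groups compared or single arrays left out are not given here. Counts under those settings are therefore no result about the members. Without the 4 arrays these differences turned sign: in females between strains Scap to -0.06, Scd1 to -0.07 and Fads1 to -0.0028, and between sexes Fads1 to 0.02 on average and 0.22 in 129. The causes were not tested. Relations to Hmgcs1 (12 members) and to astrocyte markers (13) stayed between 10 and 17 and between 11 and 18, at 17 and 14 with means per clone label as the replicate block. In these alternatives the astrocyte relations were adjusted over 29 members and not over 58 relations. The alternatives that leave out both arrays or the 4 arrays, and the astrocyte marker relation, were chosen after seeing the data. Probe sets near background and the 37 arrays limit precision.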
